A study of Sorghum bicolor with 4 samples.

Results

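The genes described here are from the sorghum stem internode. Their transcript level changed by less than 1 in log2(FPKM + 1) between booting and the milky stage. It was then at least 4-fold lower at maturity, on the FPKM + 1 scale. They were chosen by their measured values in the authors' table. FPKM is a fragment count corrected for the length of the transcript and for how many fragments were mapped. A gene was a member if log2(FPKM + 1) at the milky stage lay within 1 of its value at booting and log2(FPKM + 1) at maturity was at least 2 below its value at the milky stage. The rule was applied to the 26729 rows with a single gene ID ending in 00, of 34458 rows in all. It found 32 genes.

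The series follows the middle internode of the stem of the sweet sorghum variety SSV84 (Sorghum bicolor), raised in an open field. The labels list 2 libraries from booting, 1 from the milky stage and 1 from physiological maturity, with no treatment and no mutant line. The labels do not give the number of plants behind a library. The authors deposited a single FPKM value for each row and stage. No difference can therefore be set against replicates or tested, and the spread between plants is unknown. The word fell is used where log2(FPKM + 1) dropped by at least 1 between stages, as a description of these values.

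At booting the panicle of a grass is still enclosed in the flag leaf sheath, at the milky stage the grain is filling, and at physiological maturity grain filling has ended. An internode first elongates, fed by a meristem at its base, and later thickens its secondary walls with cellulose, xylan and lignin. In sweet sorghum its parenchyma also stores sucrose. How far the sampled internode had elongated at each stage was not measured here. R2R3 MYB factors, named in the title of the series, are transcription factors known in plants for control of phenylpropanoid synthesis and of secondary walls. Neither the deposited table nor the RefSeq gene table (Sorghum_bicolor_NCBIv3) pairs the IDs of the 32 genes with a name or a description, and 0 of the 32 were found in the RefSeq table. They are therefore described by level, by stage and by position, and no role is given to any of them. For the same reason the tissue could not be checked against marker genes. No table used here holds their promoter or protein sequences, and none is printed.

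Among the 26729 single-ID rows, 91 (0.340%) fell by at least 2 from the milky stage to maturity. The 32 genes are those of the 91 whose first step was within 1. Another 55 of the 91 had first risen by at least 1 from booting to the milky stage, and 4 had already fallen by at least 1. A gene could meet the rule only if it had 3 FPKM or more at the milky stage, and 10826 rows with a first step within 1 did. The 32 are 0.296% of those 10826, a share that depends on where the rule sets its bounds, and nothing is read from it. The opposite pattern, a first step within 1 and then a rise of at least 2, was met by 109 of the 26729 rows (0.408%).

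**Figure D1:**
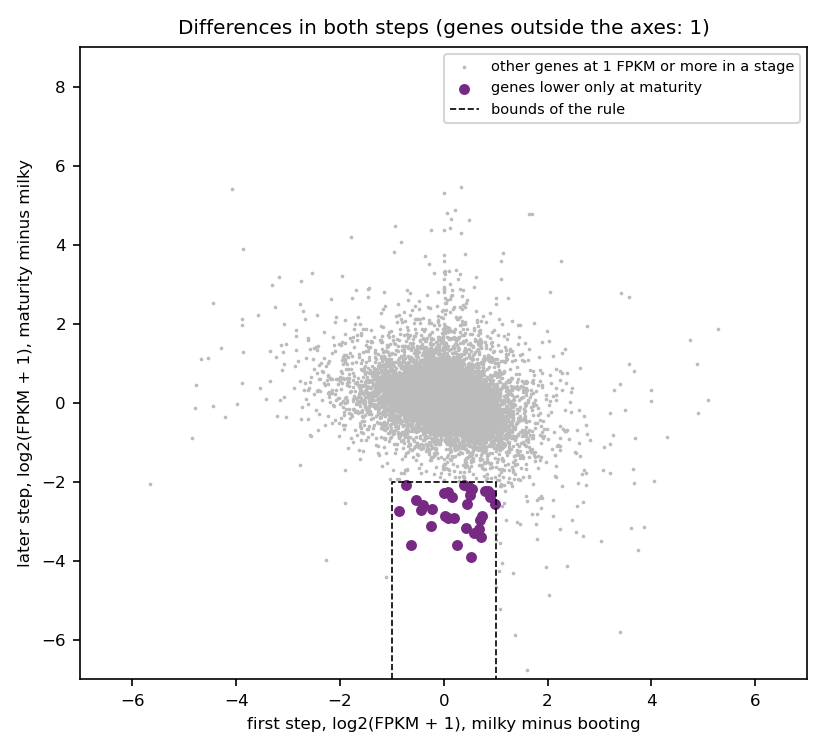
Difference in log2(FPKM + 1) from booting to the milky stage (x axis) and from the milky stage to maturity (y axis) for the 15323 single-ID genes at 1 FPKM or more in at least 1 stage. The 32 genes (purple) lie inside the dashed bounds that chose them, 24 of them to the right of 0 and 8 to the left, and most of the remaining genes with a later difference under -2 lie to the right of the bounds. The axes leave out 1 grey point.

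The later difference of the 32 genes ran from -3.90 to -2.08 on the log2(FPKM + 1) scale, with a median of -2.65. Over all 15323 single-ID rows at 1 FPKM or more in a stage, its median was 0.06. In plain FPKM, a median of 10.2% of the milky-stage level was left at maturity, with a lowest share of 0.201% and a highest of 22.1%. At least 10-fold less FPKM remained at maturity in 16 of the 32 genes, and at least 100-fold less in 5. Of the 32, 8 fell by at least 3 on the log2 scale. Over the 15323 expressed single-ID rows, 94, 29 and 35 did so, in the same order, and since the rule used this contrast nothing is read from the members' counts.

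The 32 genes covered a wide range of levels. Their median was 14.6 FPKM at booting and 19.5 at the milky stage, then 2.59 at maturity. At the milky stage 9 genes had under 10 FPKM, 17 had 10 to 100 and 6 had 100 or more. At maturity 12 were under 1 FPKM, 14 had 1 to 10 and 6 still had 10 or more. None was listed at 0 at maturity. Together the 32 genes held 0.252% of the summed FPKM of the table at booting and 0.283% at the milky stage, then 0.0359% at maturity. Much of that came from Sobic.004G220300, which alone held 45.9% of the members' sum at booting and 30.4% at the milky stage, then 19.4% at maturity. Without it, the remaining 31 genes summed to 1083 FPKM at booting and 1354 at the milky stage, then 198 at maturity.

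**Figure D2:**
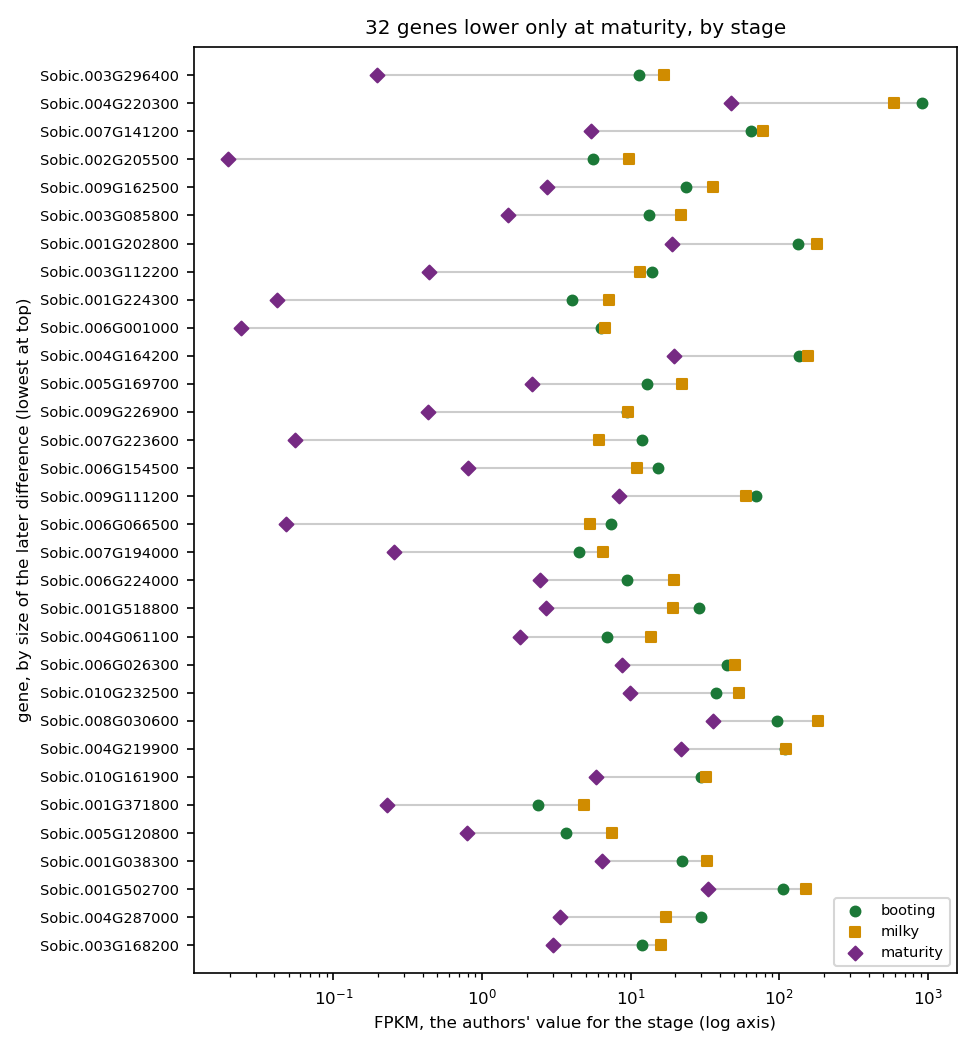
FPKM of each of the 32 genes at booting (green circle), the milky stage (orange square) and maturity (purple diamond), on a log axis, ordered from the largest later difference in log2(FPKM + 1) at the top. Each symbol is the authors' single value for the stage. The values at maturity, from 0.0196 to 47.6 FPKM, stand apart to the left in every row, whereas those at booting and the milky stage lie closer to each other.

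The genes that were nearest to 0 at maturity are described first. In 5 genes the level at maturity was under 0.1 FPKM. The number in brackets after the levels of each gene is its later difference, maturity minus the milky stage, in log2(FPKM + 1). Sobic.002G205500 (chromosome 2, 59706938 to 59711587) had 5.57 FPKM at booting and 9.76 FPKM at the milky stage, then 0.0196 FPKM at maturity (-3.40). Its ratio was the widest of the 32 genes, with 498-fold less FPKM at maturity than at the milky stage. Sobic.006G001000 (chromosome 6, 106707 to 108954) had 6.32 FPKM at booting and 6.77 FPKM at the milky stage, then 0.0240 FPKM at maturity (-2.92). This gene was nearly level over the first step (0.09 in log2) and had 283-fold less FPKM at maturity than at the milky stage. Sobic.001G224300 (chromosome 1, 21485581 to 21489706) had 4.005 FPKM at booting and 7.15 FPKM at the milky stage, then 0.0414 FPKM at maturity (-2.97). Sobic.007G223600 (chromosome 7, 65105672 to 65107929) had 11.9 FPKM at booting and 6.13 FPKM at the milky stage, then 0.0551 FPKM at maturity (-2.76). Sobic.006G066500 (chromosome 6, 42687332 to 42690550) had 7.42 FPKM at booting and 5.37 FPKM at the milky stage, then 0.0482 FPKM at maturity (-2.60). These last 2 were both lower at the milky stage than at booting, and Sobic.007G223600 had the lowest first step of all 32 genes, -0.86. All 5 had moderate levels before maturity, from 4.005 to 11.9 FPKM at booting and from 5.37 to 9.76 at the milky stage. How many fragments lie behind a value such as 0.0196 FPKM is not known, since sequencing depth is not stated, so the ratios of these 5 genes have an unknown error.

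A further 7 genes had between 0.1 and 1 FPKM at maturity. Sobic.003G296400 (chromosome 3, 62851273 to 62857742) had 11.4 FPKM at booting and 16.8 FPKM at the milky stage, then 0.196 FPKM at maturity (-3.90). It had the largest difference of the 32 on the log2(FPKM + 1) scale, and 85.8-fold less FPKM at maturity than at the milky stage. Sobic.003G112200 (chromosome 3, 10085746 to 10088662) had 13.9 FPKM at booting and 11.5 FPKM at the milky stage, then 0.442 FPKM at maturity (-3.12). Sobic.009G226900 (chromosome 9, 56824722 to 56827765) had 9.43 FPKM at booting and 9.55 FPKM at the milky stage, then 0.436 FPKM at maturity (-2.88). Sobic.006G154500 (chromosome 6, 51423541 to 51424842) had 15.2 FPKM at booting and 10.99 FPKM at the milky stage, then 0.807 FPKM at maturity (-2.73). Of these 3, Sobic.009G226900 was the steadiest over the first step, with a log2 difference of 0.02. Sobic.007G194000 (chromosome 7, 62602758 to 62676268) had 4.49 FPKM at booting and 6.48 FPKM at the milky stage, then 0.257 FPKM at maturity (-2.57). Its locus is shared with 9 other rows of the table, which are described further on. Sobic.001G371800 (chromosome 1, 66000704 to 66001250) had 2.37 FPKM at booting and 4.84 FPKM at the milky stage, then 0.229 FPKM at maturity (-2.25). Sobic.005G120800 (chromosome 5, 52984754 to 52986445) had 3.66 FPKM at booting and 7.47 FPKM at the milky stage, then 0.798 FPKM at maturity (-2.24). Both of these last genes stood at 204% of their booting FPKM at the milky stage, yet stayed within the bound of 1 because of the added 1.

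The 14 genes with 1 to 10 FPKM at maturity had between 13.7 and 77.5 FPKM at the milky stage. Sobic.007G141200 (chromosome 7, 57060872 to 57068026) had 64.5 FPKM at booting and 77.5 FPKM at the milky stage, then 5.44 FPKM at maturity (-3.61). It had the highest milky-stage level of the 14. Sobic.009G162500 (chromosome 9, 51943204 to 51948939) had 23.5 FPKM at booting and 35.7 FPKM at the milky stage, then 2.73 FPKM at maturity (-3.30). Sobic.003G085800 (chromosome 3, 7415831 to 7417117) had 13.3 FPKM at booting and 21.9 FPKM at the milky stage, then 1.49 FPKM at maturity (-3.20). Sobic.005G169700 (chromosome 5, 64914638 to 64918875) had 12.9 FPKM at booting and 22.3 FPKM at the milky stage, then 2.16 FPKM at maturity (-2.88). These 3 were all higher at the milky stage than at booting, by 0.59 to 0.74 in log2, and had 10.3 to 14.7-fold less FPKM at maturity than at the milky stage. Sobic.009G111200 (chromosome 9, 44785011 to 44786963) had 69.4 FPKM at booting and 59.5 FPKM at the milky stage, then 8.39 FPKM at maturity (-2.69). Sobic.001G518800 (chromosome 1, 78494011 to 78496345) had 28.7 FPKM at booting and 19.4 FPKM at the milky stage, then 2.71 FPKM at maturity (-2.46). Sobic.004G287000 (chromosome 4, 62935646 to 62940114) had 29.6 FPKM at booting and 17.4 FPKM at the milky stage, then 3.35 FPKM at maturity (-2.08). In contrast, these 3 were already somewhat lower at the milky stage than at booting, with first steps of -0.22, -0.54 and -0.74.

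Among the 14, the first step was largest in Sobic.006G224000. Sobic.006G224000 (chromosome 6, 57016308 to 57019669) had 9.43 FPKM at booting and 19.7 FPKM at the milky stage, then 2.47 FPKM at maturity (-2.57). Its first step of 0.99 is the one closest to the upper bound of the rule. Sobic.004G061100 (chromosome 4, 4896231 to 4897446) had 6.89 FPKM at booting and 13.7 FPKM at the milky stage, then 1.798 FPKM at maturity (-2.39). Sobic.001G038300 (chromosome 1, 2851084 to 2854638) had 22.1 FPKM at booting and 32.6 FPKM at the milky stage, then 6.40 FPKM at maturity (-2.18). Sobic.010G232500 (chromosome 10, 57553550 to 57557304) had 37.7 FPKM at booting and 53.6 FPKM at the milky stage, then 9.85 FPKM at maturity (-2.33). These 3 also had higher values at the milky stage than at booting, by less than the bound, and 13.2%, 19.7% and 18.4% of their milky-stage FPKM was left at maturity, in the same order. Sobic.006G026300 (chromosome 6, 4701468 to 4704483) had 44.7 FPKM at booting and 50.1 FPKM at the milky stage, then 8.82 FPKM at maturity (-2.38). Sobic.010G161900 (chromosome 10, 47906857 to 47908637) had 30.0 FPKM at booting and 31.96 FPKM at the milky stage, then 5.85 FPKM at maturity (-2.27). Sobic.003G168200 (chromosome 3, 28831985 to 28834119) had 12.01 FPKM at booting and 16.0 FPKM at the milky stage, then 3.02 FPKM at maturity (-2.08). These 3 kept 17.6%, 18.3% and 18.9% of their milky-stage FPKM at maturity, in the same order.

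The 6 genes with 10 FPKM or more at maturity were also the 6 with 100 FPKM or more at the milky stage. Sobic.004G220300 (chromosome 4, 57051382 to 57055340) had 919 FPKM at booting and 592 FPKM at the milky stage, then 47.6 FPKM at maturity (-3.61). It was the most abundant of the 32 genes in each stage, and even after a 12.5-fold drop in FPKM it stood above 83.6% of expressed single-ID genes at maturity, against 99.5% at the milky stage. Sobic.001G202800 (chromosome 1, 18434751 to 18438441) had 133 FPKM at booting and 180 FPKM at the milky stage, then 19.1 FPKM at maturity (-3.17). Sobic.004G164200 (chromosome 4, 51358104 to 51359725) had 136 FPKM at booting and 156 FPKM at the milky stage, then 19.7 FPKM at maturity (-2.92). Both of these had 133 FPKM or more before maturity, and 10.6% and 12.7% of their milky-stage FPKM was left at maturity, in that order. Sobic.008G030600 (chromosome 8, 2727275 to 2736824) had 97.1 FPKM at booting and 182 FPKM at the milky stage, then 35.7 FPKM at maturity (-2.32). Sobic.001G502700 (chromosome 1, 77131006 to 77134306) had 107 FPKM at booting and 151 FPKM at the milky stage, then 33.4 FPKM at maturity (-2.14). Sobic.004G219900 (chromosome 4, 56987602 to 56989088) had 110 FPKM at booting and 111 FPKM at the milky stage, then 21.8 FPKM at maturity (-2.30). These 3 kept the largest shares of the 6, at 19.6%, 22.1% and 19.7% of their milky-stage FPKM, in that order. Sobic.001G502700 kept the largest share of all 32 genes.

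**Figure D3:**
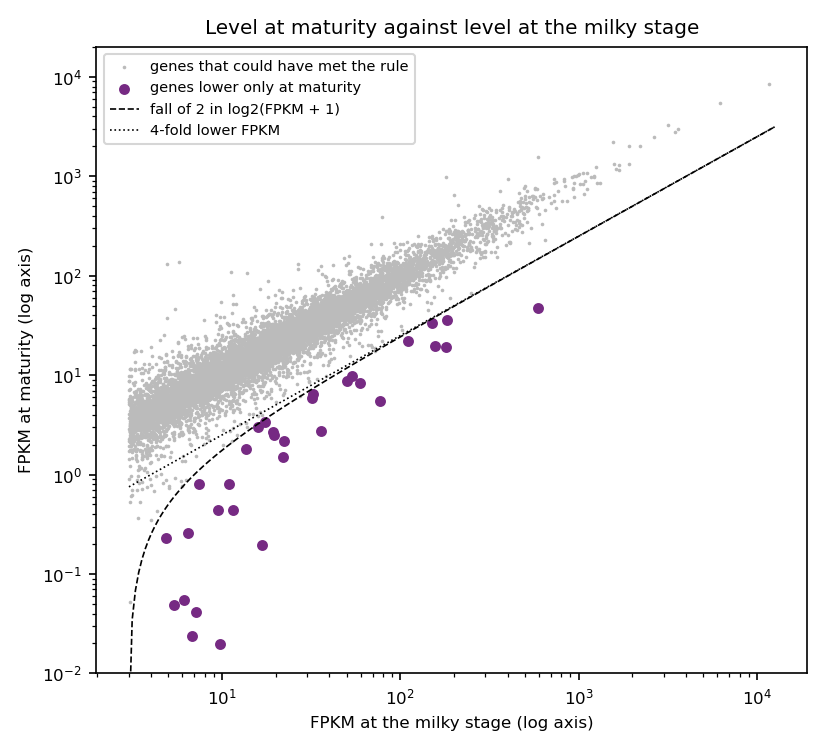
FPKM at maturity (y axis) against FPKM at the milky stage (x axis), both on log axes, for the 10826 single-ID genes that could have met the rule (grey) and the 32 that did (purple). The dashed line marks a fall of 2 in log2(FPKM + 1) and the dotted line 4-fold lower FPKM. The lines part at low levels, and the grey genes between them had a ratio of at least 4 without being members.

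The added 1 shaped which genes entered. Of the 10826 genes that could have met the rule, 72 had FPKM at least 4-fold lower at maturity than at the milky stage, and the 32 are among them. By the plain ratio, the order of the members also differs. The 5 genes under 0.1 FPKM at maturity had the 5 widest ratios, from 111 to 498-fold, but on the log2(FPKM + 1) scale their differences were only -2.60 to -3.40. Sobic.004G220300, the second largest on the log2(FPKM + 1) scale at -3.61, had a ratio of 12.5.

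The edges of the rule were close to other genes. The 3 members nearest to the bound on the fall were Sobic.003G168200 and Sobic.004G287000, both at -2.08, and Sobic.001G502700 at -2.14. Just outside it, Sobic.008G163200 had 45.5 FPKM at booting and 27.5 at the milky stage, then 6.20 at maturity, a later difference of -1.99. Sobic.004G264500 had 58.9, 72.4 and 17.7 FPKM at the same stages (-1.98). Sobic.003G183600 had 5.92, 5.96 and 0.775 FPKM (-1.97). The nearest gene outside and the nearest member differ by about 0.1 on the log2 scale. On the first step, Sobic.003G062000 lay just outside the upper bound, with 4.65 FPKM at booting and 10.3 at the milky stage, then 0.122 at maturity. At the lower bound the nearest gene outside was Sobic.001G455700, with 125 FPKM at booting and 56.8 at the milky stage, then 1.71 at maturity, a first step of -1.12.

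The milky stage had the higher value of the first 2 stages in 24 of the 32 genes, and booting in 8. Among the 10826 genes that could have met the rule, 5283 were higher at the milky stage and 5543 at booting. The milky-stage value enters both steps of the rule, which favours genes with a high value there, so nothing is read from the 24. The first step was under 0.5 in size for 16 of the 32. Against booting, maturity was lower by at least 2 in 23 of the 32 genes, a size that 1.08% of the 15323 expressed single-ID rows reached. That count too follows largely from the rule, which places each member more than 1 below its booting level. Measured from booting, the largest difference was that of Sobic.004G220300, -4.24, and the smallest that of Sobic.005G120800, -1.37.

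The 32 genes differ from the 55 that fell after a rise in what the rule itself sets, the level at booting relative to the milky stage. The 32 had a median of 14.6 FPKM at booting, 19.5 FPKM at the milky stage and 2.59 FPKM at maturity, against 6.45, 28.9 and 1.54 FPKM in the 55. The median difference between maturity and booting was -2.61 on the log2(FPKM + 1) scale for the 32 genes, against -0.96 for the 55. The 32 thus ended farther below their booting level, as the bounds on the first step imply. The 4 genes that had already fallen had a median of 226 FPKM at booting and 33.8 at the milky stage, then 1.35 at maturity.

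The position of the genes was not used by the rule. The labels name no genome build, and positions are those of the authors' table. Members lay on all 10 chromosomes, with 6 on chromosome 1, 5 each on chromosomes 4 and 6, 4 on chromosome 3, 3 each on chromosomes 7 and 9, 2 each on chromosomes 5 and 10, and 1 each on chromosomes 2 and 8. As a share of the genes that could have met the rule, members ran from 0.0722% on chromosome 2 (1 of 1386) to 0.533% on chromosome 6 (5 of 938). With 1 to 6 genes per chromosome, these shares rest on few genes. Of the 32 genes, 23 (71.9%) lay in the outer 20% of either end of their chromosome as the table covers it, against 79.3% of the 10826. The median length of the authors' locus, introns included, was 3130 bp for the 32. It was 4642 bp for the 10826 and 1959 bp for the 55 that fell after a rise. A locus shared by several rows can span more than 1 gene, so these are not always lengths of single genes. Loci overlapped another row in 4 of the 32, 1834 of the 10826 and 5 of the 55. None of these differences was tested.

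Few rows next to the 32 genes fell from the milky stage to maturity, as around the 10826 genes that could have met the rule. The 32 genes had 60 nearest expressed neighbours that did not overlap them, where an expressed row is one at 1 FPKM or more in a stage. Of these 60, 4 (6.67%) fell by at least 1 from the milky stage to maturity and 2 (3.33%) rose by at least 1. Around the 10826 genes that could have met the rule, 3.60% of neighbours fell by at least 1 and 5.24% rose. The difference between 6.67% and 3.60% rests on 4 rows and was not tested. The median later difference of the neighbours was -0.02, against 0.05 around the 10826.

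The 4 neighbours that fell lay beside Sobic.003G168200, Sobic.004G220300, Sobic.004G287000 and Sobic.008G030600. Beside Sobic.008G030600, a row that merges Sobic.008G030700 and Sobic.008G030900 stood 8551 bp away with 106 FPKM at booting and 193 at the milky stage, then 94.6 at maturity. It was close to its neighbour at the first 2 stages and higher at maturity, where Sobic.008G030600 had 35.7 FPKM. On the other side of the same gene, an unannotated row 2683 bp away stood at 9.53 FPKM at maturity against 0.634 at the milky stage, the opposite direction. The second neighbour that rose was Sobic.003G296600, 7434 bp from Sobic.003G296400, with 23.4 FPKM at maturity against 7.21 at the milky stage.

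The members were spread out, and a single pair lay close together. Sobic.004G219900 and Sobic.004G220300 were 62294 bp apart on chromosome 4, with 3 rows between them. The next closest pair, Sobic.001G502700 and Sobic.001G518800, was 1359705 bp apart. Of the 3 rows between the chromosome 4 pair, Sobic.004G220000 had 78.1 FPKM at maturity against 104 at the milky stage, and Sobic.004G220200 had 1.53 against 6.05 FPKM. The third, Sobic.004G220101, was listed at 0 in all stages. Beyond Sobic.004G220300, the next row, Sobic.004G220400, had 81.3 FPKM at maturity against 61.6 at the milky stage. Of the 2 expressed rows between the pair, Sobic.004G220200 thus fell as well, with a difference of -1.48 on the log2(FPKM + 1) scale, whereas Sobic.004G220000 did not.

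**Figure D4:**
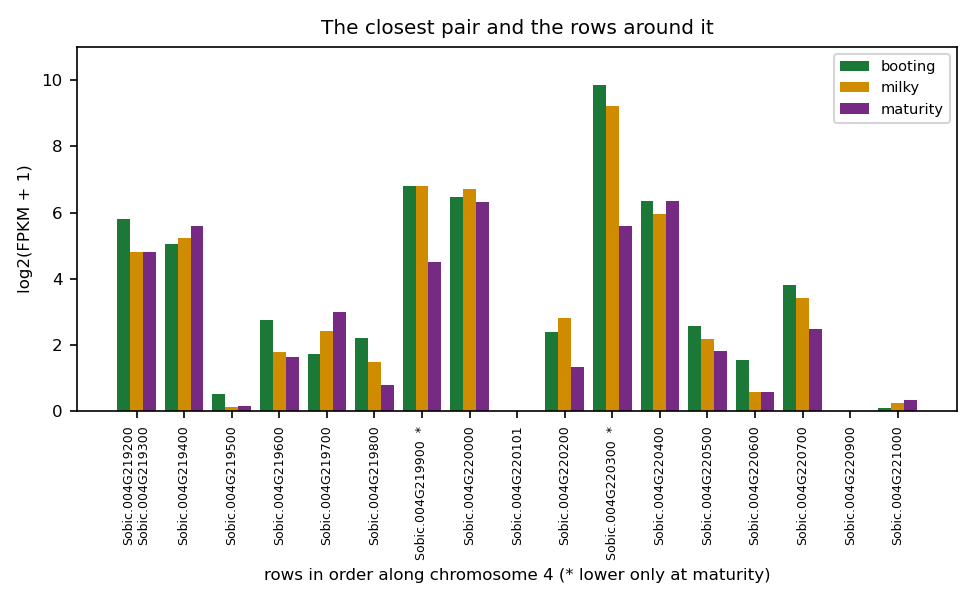
log2(FPKM + 1) at booting (green), the milky stage (orange) and maturity (purple) for 17 rows in order along chromosome 4 around the closest pair of members, which are marked with a star. Sobic.004G219900 and Sobic.004G220300 differ by -2.30 and -3.61 between maturity and the milky stage, in that order, and of the 2 expressed rows between them Sobic.004G220200 differs by -1.48 and Sobic.004G220000 by -0.41. Sobic.004G220400, beyond the pair, differs by 0.39.

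The loci of 4 of the 32 genes overlapped another row of the table, against 1834 of the 10826 genes that could have met the rule. In these 4 the authors' locus is shared with further rows, and the loci of the other 28 overlapped none. Sobic.007G194000 shares a locus of 73510 bp with 9 rows, among them Sobic.007G194300 with 82.6 FPKM at maturity against 78.6 at the milky stage. The later differences of those 9 rows ran from -0.46 to 0.58. Of the 9, 4 were under 0.1 FPKM in each stage and could not have fallen by 1, and none of the other 5 did. Sobic.001G202800 shares its locus with Sobic.001G202700, which had 0.699 FPKM at maturity against 2.58 at the milky stage, and with an unannotated row at 0.408 against 1.57 FPKM. Sobic.004G287000 shares one with Sobic.004G287100, at 9.51 FPKM at maturity against 12.9 at the milky stage. Sobic.009G162500 shares one with Sobic.009G162550, which reached at most 0.0127 FPKM in any stage. Whether sharing a locus moved these values was not tested.

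Of the 26729 rows with a single ID ending in 00, 32 met the pattern of values. It was also met by 11 rows that the rule on gene IDs leaves out. Of these, 5 merge several gene IDs (of 1262 such rows), 4 carry a single ID that does not end in 00 (of 4694), and 2 are unannotated (of 1773). The largest difference among them was that of the row merging Sobic.006G148800 and Sobic.006G148900 (chromosome 6, 51039815 to 51056309), which had 118 FPKM at booting and 161 at the milky stage, then 5.60 at maturity. Its later difference of -4.62 was larger than that of any of the 32 genes, but its value does not belong to 1 gene. Sobic.008G070350 (chromosome 8, 9182012 to 9185901) had 61.9 FPKM at booting and 106 at the milky stage, then 12.2 at maturity (-3.02). Both were singled out after their values were seen.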

How the data were processed

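Per the labels' protocols, RNA came from a modified Trizol extraction and went into stranded libraries of total RNA. Cuffdiff, HISAT2 2.0.5, Bowtie2 2.2.9 and cutadapt 1.8.1 were used, per the submitters' processing notes. Those notes, as held here, give no role for each tool, no build or annotation and no depth. The deposited values are FPKM, 1 per stage, per the file headers. They were used as deposited, and all differences are of log2(FPKM + 1), which understates changes of low values. With 1 value per stage, limma could not be fitted, and no p-value was computed.

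The members and lists were chosen with earlier results of these data known. The rule for named genes took the 12 largest falls, the 6 highest at the milky stage and the genes at the bounds; all 32 members are given beside them. The 15 function lists and the promoter motifs needed gene descriptions and sequences, which no table used here pairs with these IDs, and were not applied. The code was tested on simulated data in which booting and the milky stage had equal values. The bound on the first step was therefore not exercised. Alternatives were 2 pseudocounts, 2 filters, 2 rescalings, other bounds on both steps and all rows. Python 3.11.15, numpy 2.4.6, pandas 2.3.3 and matplotlib 3.10.9 were used.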

Additional observations from a re-analysis of the deposited data

How the results depend on the processing

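The number of genes lower only at maturity, 32, stayed within 1.5 times under rescaling by the median of ratios (34, of which 31 shared with the 32), quantile normalization (43, 31 shared), a mean of at least 5 FPKM (26) and all rows (43). The filter on the mean could only remove members, and the use of all rows could only add to them. A filter of at least 1 FPKM at the milky stage could not change the 32, since a member needs 3 FPKM there. The number moved to 111 (30 shared) with a pseudocount of 0.1 and 14 (11 shared) with 5, to 101 and 8 with a fall of at least 1.5 and 3, and to 16 and 55 with a first step within 0.5 and 1.5. These moves follow from how each setting weighs low values or sets its bound. Of the 32 genes, 10 stayed members in every setting that did not tighten the bound on the fall or on the first step. The members' median difference of -2.65 became -3.27 with a pseudocount of 0.1 and -1.72 with 5. The 91 single-ID rows that fell by at least 2 became 274 and 37 under the same 2 pseudocounts. No difference of a named member changed sign. A pseudocount cannot do that, and the members were chosen by falls of at least 2, so nothing is read from it. The function lists, motif windows and fits without booting replicate 1 or 2 were not run. No paired analysis was possible, because the authors deposited 1 value per stage and the milky stage and maturity have 1 library each. The stage columns also carry no replicate number. Sequencing depth is not stated, so the error of values near 0 is unknown.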
